A study of Mus musculus with 18 samples.

Results

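Wnt ligands are secreted, lipid-modified signalling proteins, and transcripts of 10 of the 19 mouse Wnt ligand genes were followed in fibroblasts and liver of mice that lack repeat B of *Xist*. The 10 genes, *Wnt2*, *Wnt2b*, *Wnt4*, *Wnt5a*, *Wnt5b*, *Wnt6*, *Wnt9a*, *Wnt10b*, *Wnt11* and *Wnt16*, were chosen by symbol with the result that *Wnt9a* is lower in RepB-/- fibroblasts in view. All 10 were found once in each table, among 21959 genes listed for fibroblasts and 51826 for liver. The study describes RepB-/- females as homozygous for a CRISPR/Cas9 deletion of repeat B, and WT animals carry intact *Xist*. Repeat B is a cytosine-rich stretch of the *Xist* RNA that recruits Polycomb complexes to the inactive X chromosome. Each sample type was represented by 3 RepB-/- and 3 WT RNA-seq libraries. The labels describe the fibroblasts as a primary mouse embryonic fibroblast (MEF) cell line and give their tissue as tail, and they give no age, sex or litter for any library. Whether the 3 libraries of a genotype came from separate cultures or animals is not stated, so p-values measure the spread between libraries.

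After secretion, which needs the acyltransferase Porcn and the carrier Wls, a Wnt protein binds Frizzled receptors. With the co-receptors Lrp5 and Lrp6 it stabilises beta-catenin, which enters the nucleus and works with Tcf and Lef proteins on target genes such as *Axin2*. With Ror or Ryk receptors it acts on cell shape, polarity and migration without beta-catenin. Fibroblasts and other mesenchymal cells are a major source of Wnt proteins in the limb and skin, and in liver Wnt proteins from endothelial cells around the central vein set the zone of hepatocytes that express *Glul*.

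Depth lay between 11540344 and 20587556 counts in MEF libraries and between 37682201 and 51542709 in liver libraries. Every MEF library held at least 1 CPM of all 8 fibroblast markers, and 0 of 7 hepatocyte markers exceeded 1 CPM in every MEF library. CPM are counts scaled to a common library size by TMM, a trimmed mean of ratios between libraries. *Xist* has no row in the MEF table used here, and its gene-level count in liver does not test for the loss of an internal repeat. In liver, *Xist* had 14704, 4 and 22681 counts in RepB-/- replicates 1, 2 and 3 and 14494, 21594 and 26345 in WT. Y-linked *Ddx3y* had 1527 counts in RepB-/- replicate 2, as labelled, and 0 in the other 5 livers. Y-linked *Eif2s3y*, *Kdm5d* and *Uty* had 1669, 708 and 438 counts in the same library. With almost no *Xist*, this is the profile of a male, which could not be homozygous for a deletion on the X chromosome. Replicate 1 of both genotypes stood apart by fetal liver transcripts, with *Afp* at 507 and 369 CPM against at most 6.04 CPM in the other 4 livers. Fold changes in liver are therefore also given without replicate 1 of both genotypes and without RepB-/- replicate 2.

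The ligands are described first in MEFs. Because that genotype contrast was used to choose them, their MEF values are a description without a test. In 6 of the 10 every RepB-/- library lay below every WT library, in *Wnt16* every RepB-/- library lay above, and in *Wnt2b*, *Wnt5b* and *Wnt6* the genotypes overlapped. Among all 13306 genes tested in MEFs, 25.8% lay below in this sense and 26.4% lay above. The 9 ligands that passed the filter on low counts had a median log2 fold change of -0.71, and the median of all genes tested was 0.0. In bulk RNA, fewer cells of a type and less RNA per cell cannot be told apart.

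**Figure D1:**
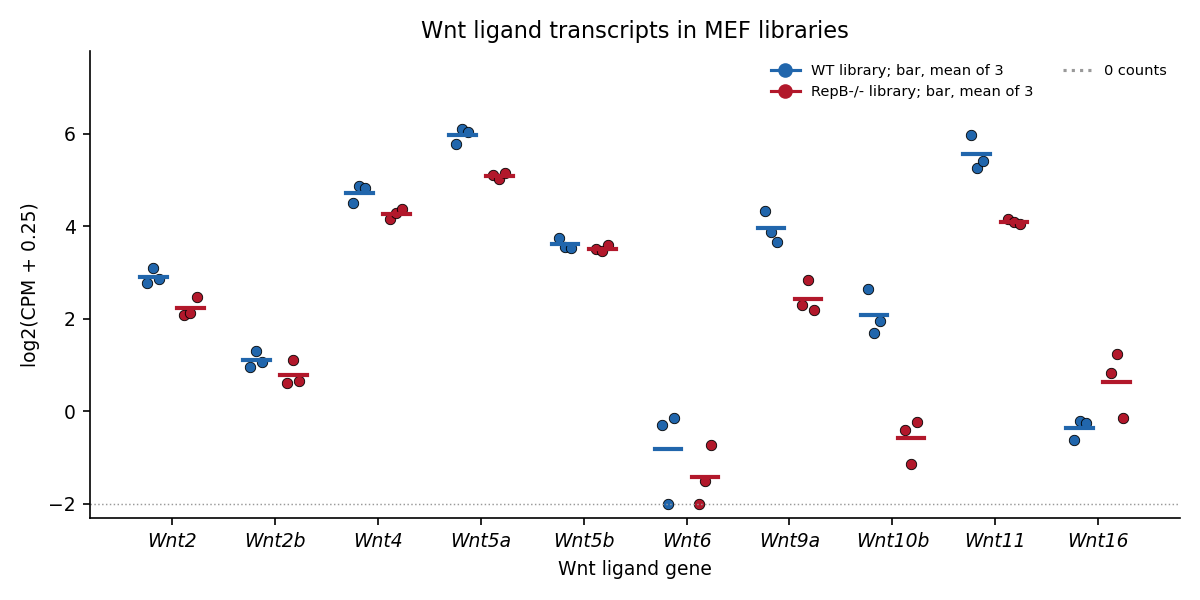
Levels of the 10 Wnt ligand transcripts in each MEF library, as log2 of CPM plus an offset of 0.25 (vertical axis), with WT in blue, RepB-/- in red and bars at the mean of the 3 log values. *Wnt9a*, *Wnt10b* and *Wnt11* show the widest gaps between genotypes, and *Wnt16* is the gene with RepB-/- above WT.

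*Wnt9a*, *Wnt4* and *Wnt16* are the ligands known from developing synovial joints. *Wnt9a* had 92, 133 and 85 counts in RepB-/- MEFs and 247, 235 and 209 in WT, or 4.69, 6.87 and 4.31 CPM against 19.8, 14.5 and 12.4 CPM. The lowest WT library was 1.81 times the highest RepB-/- library. The mean was 5.29 ± 1.38 CPM in RepB-/- and 15.6 ± 3.81 CPM in WT (SD, n = 3), a log2 fold change of -1.55 (SE 0.20), or 0.342 of the WT level. *Wnt9a* differed by -1.35 on the log2 scale without WT replicate 1, its highest and the shallowest library, and by between -1.78 and -1.35 over all 6 fits that left out a library. *Wnt4*, a regulator of kidney tubule and female reproductive tract development as well, had 17.6, 19.4 and 20.7 CPM in RepB-/- and 22.5, 28.9 and 28.1 CPM in WT. Its libraries did not overlap, but the highest RepB-/- and the lowest WT library lay close together, and the log2 fold change was -0.47 (SE 0.11). *Wnt16*, which is also known for maintaining cortical bone, was the exception in direction, with 1.53, 2.12 and 0.659 CPM in RepB-/- against 0.401, 0.618 and 0.594 CPM in WT. These are 30, 41 and 13 counts against 5, 10 and 10, so that RepB-/- replicate 3 was nearly level with WT. The log2 fold change of *Wnt16* was 1.38 (SE 0.49), and it was 1.00 without RepB-/- replicate 2.

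*Wnt5a*, *Wnt5b* and *Wnt11* act mainly without beta-catenin. *Wnt5a*, which drives limb and face outgrowth through Ror2, had 34.3, 32.3 and 35.3 CPM in RepB-/- and 54.9, 69.0 and 65.2 CPM in WT. RepB-/- libraries were tightly grouped and all lay below WT, with a log2 fold change of -0.89 (SE 0.093), or 0.539 of WT. *Wnt11*, known from cell movements in the gastrula, had 17.6, 17.0 and 16.3 CPM in RepB-/- and 63.0, 38.5 and 42.4 CPM in WT. WT replicate 1 was again the highest, and the log2 fold change of *Wnt11* was -1.49 (SE 0.15) with it and -1.26 without it. *Wnt5b*, the paralogue of *Wnt5a*, had 11.1, 10.8 and 11.8 CPM in RepB-/- against 13.2, 11.4 and 11.4 CPM in WT. Its genotypes overlapped, with a log2 fold change of -0.09 (SE 0.13). When scaled by total counts alone, the RepB-/- libraries of *Wnt5b* all lay below WT.

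*Wnt10b*, *Wnt2*, *Wnt2b* and *Wnt6* signal mainly through beta-catenin. *Wnt10b*, which favours bone over fat formation in mesenchymal precursors, had 10, 4 and 12 counts in RepB-/- and 75, 48 and 61 counts in WT. Its mean was 0.442 ± 0.209 CPM in RepB-/- and 4.20 ± 1.60 CPM in WT (SD, n = 3). With a log2 fold change of -3.21 (SE 0.42), or 0.108 of WT, *Wnt10b* had the widest difference of the 10 ligands, between -3.50 and -2.87 when single libraries were left out. *Wnt2*, a ligand of lung and liver mesenchyme and endothelium, had 4.03, 4.13 and 5.27 CPM in RepB-/- and 6.58, 8.29 and 7.07 CPM in WT, with a log2 fold change of -0.71 (SE 0.19). *Wnt2b*, its paralogue, overlapped between genotypes at 1.27, 1.91 and 1.32 CPM against 1.68, 2.23 and 1.84 CPM. *Wnt6* was hardly detected, with 0, 2 and 7 counts in RepB-/- and 7, 0 and 11 in WT, and did not pass the filter.

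**Figure D2:**
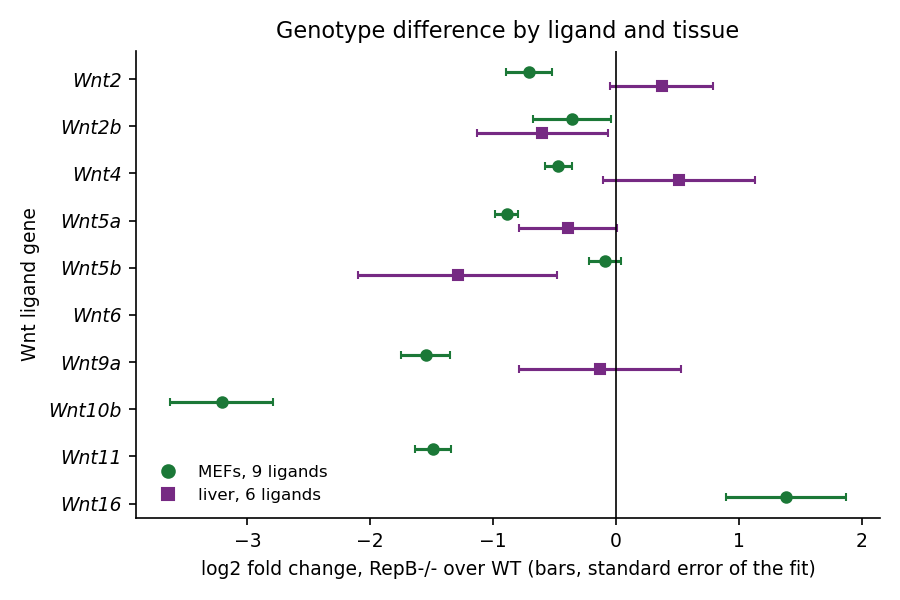
Log2 fold change of RepB-/- over WT (horizontal axis) for each ligand in MEFs (green circles) and liver (purple squares), with bars of 1 standard error of the fit. MEF points run from -3.21 for *Wnt10b* to 1.38 for *Wnt16*, and liver bars are wider, with *Wnt5b* farthest from 0 at -1.29. *Wnt6* was fitted in neither tissue.

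Low counts were also read against a background signal that differed between the genotypes. Odour, pheromone and taste receptor genes, which fibroblasts do not use, had a summed signal of 0.00185 to 0.00232 CPM per kilobase in RepB-/- MEFs and 0.0112 to 0.0211 CPM per kilobase in WT MEFs, over 1588 genes. At that rate *Wnt10b* would hold at most 0.16 counts in a RepB-/- library and between 0.62 and 0.89 counts in a WT library. Its WT libraries had 48 to 75 counts. The rate is a mean, and only 383 to 518 of the 1588 genes had a count in a WT library. It therefore sets no upper limit for a single gene. *Wnt1*, *Wnt3* and *Wnt3a* had few counts in either genotype, and this rate would give them at most 0.81 counts in a WT library. *Wnt3* had 0 counts in all RepB-/- libraries and 3, 3 and 4 in WT, and *Wnt3a*, which lies 16.2 kb from *Wnt9a* on chromosome 11, had 0 counts in RepB-/- and 4, 4 and 1 in WT. *Wnt1*, 11.7 kb from *Wnt10b* on chromosome 15, had 2, 0 and 2 counts against 7, 5 and 14. For *Lef1*, *Tcf7*, *Celsr1* and *Celsr2*, described below, the mean rate would give 2.3, 0.79, 3.1 and 3.2 counts in WT replicate 1. They had 56, 162, 37 and 88 counts there. The part of this background in the values of these and other low genes was not tested.

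*Wnt9a*, *Wnt10b* and *Wnt11* are not neighbours. In the coordinates of the MEF table (GRCm39), *Wnt9a* lies at chr11:59197754-59224378, *Wnt10b* at chr15:98668593-98676031 and *Wnt11* at chr7:98484319-98504402. The 250 bases before their first listed RefSeq start (GRCm38.p6) are shown because these 3 ligands had the widest MEF differences. Capitals mark the Tcf/Lef core CTTTGA, the GC box GGGCGG and the TATA box TATAAA, each searched on both strands.
*Wnt9a*, chr11:59306680-59306929, plus strand: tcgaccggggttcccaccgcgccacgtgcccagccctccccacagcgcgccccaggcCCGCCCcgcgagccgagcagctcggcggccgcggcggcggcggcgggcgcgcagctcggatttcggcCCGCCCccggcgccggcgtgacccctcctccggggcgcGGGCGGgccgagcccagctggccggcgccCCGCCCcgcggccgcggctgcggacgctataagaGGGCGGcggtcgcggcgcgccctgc
*Wnt10b*, chr15:98778151-98778400, minus strand: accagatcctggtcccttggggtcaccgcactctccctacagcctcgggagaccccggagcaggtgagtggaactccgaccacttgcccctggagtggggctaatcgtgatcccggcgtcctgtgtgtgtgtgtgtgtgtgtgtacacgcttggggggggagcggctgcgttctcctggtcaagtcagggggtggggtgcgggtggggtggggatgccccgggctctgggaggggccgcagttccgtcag
*Wnt11*, chr7:98834862-98835111, plus strand: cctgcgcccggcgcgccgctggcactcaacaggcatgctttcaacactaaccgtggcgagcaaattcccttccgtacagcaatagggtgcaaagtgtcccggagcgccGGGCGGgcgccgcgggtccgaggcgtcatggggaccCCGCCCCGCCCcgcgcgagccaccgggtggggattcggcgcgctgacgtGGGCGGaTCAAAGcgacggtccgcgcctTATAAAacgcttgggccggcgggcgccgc

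The *Wnt9a* window was 84.4% G and C with 48 CpG pairs and 5 GC boxes. The *Wnt11* window was 70.8% G and C with 37 CpG pairs, 4 GC boxes, a Tcf/Lef core starting 50 bases before the start and a TATA box starting 29 bases before it. None of the 3 motifs was in the *Wnt10b* window, which was 66.8% G and C with 14 CpG pairs. Over all 32851 promoter entries the median was 52.4% G and C with 6 CpG pairs, and 32.7% held a GC box, 13.8% the Tcf/Lef core and 12.4% the TATA box. Of 12 entries for the 9 ligands with one, 8 held a GC box, 2 the Tcf/Lef core and 1 the TATA box. *Wnt5a* had no entry. A GC box was thus present in 2 of these 3 windows.

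Levels of different ligands were compared per length, as mean CPM per kilobase of exon. In WT MEFs, *Wnt11* led at 11.6 ± 3.19, followed by *Wnt5a* at 8.05 ± 0.934, *Wnt4* at 6.32 ± 0.841, *Wnt9a* at 4.68 ± 1.14, *Wnt5b* at 4.52 ± 0.376 and *Wnt2* at 3.24 ± 0.391 CPM per kilobase (SD, n = 3). *Wnt4* overlapped in range with *Wnt9a*, and *Wnt9a* with *Wnt5b*, so their order is not fixed by these libraries. In RepB-/- MEFs the order was *Wnt4* at 4.58 ± 0.370, *Wnt5a* at 4.34 ± 0.194, *Wnt5b* at 4.23 ± 0.195 and *Wnt11* at 4.09 ± 0.159 CPM per kilobase, and the ranges of neighbours in this order overlapped. *Wnt9a* was sixth of 10 in RepB-/- MEFs, behind *Wnt2*. *Wnt11* therefore led alone in WT and was 1 of 4 ligands at a like level in RepB-/-.

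Summed over all 19 Wnt ligands, the level was 21.4, 22.3 and 22.6 CPM per kilobase in RepB-/- MEFs and 45.4, 39.8 and 39.4 CPM per kilobase in WT. The 10 ligands held between 96.7% and 98.5% of this sum in every MEF library. As they were chosen with the MEF contrast in view, the gap in the sum is a description as well. *Wnt11* made up 27.6% of the sum in WT and 18.5% in RepB-/-, *Wnt9a* 11.2% and 7.19%, and *Wnt5b* 10.9% and 19.2%.

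**Figure D3:**
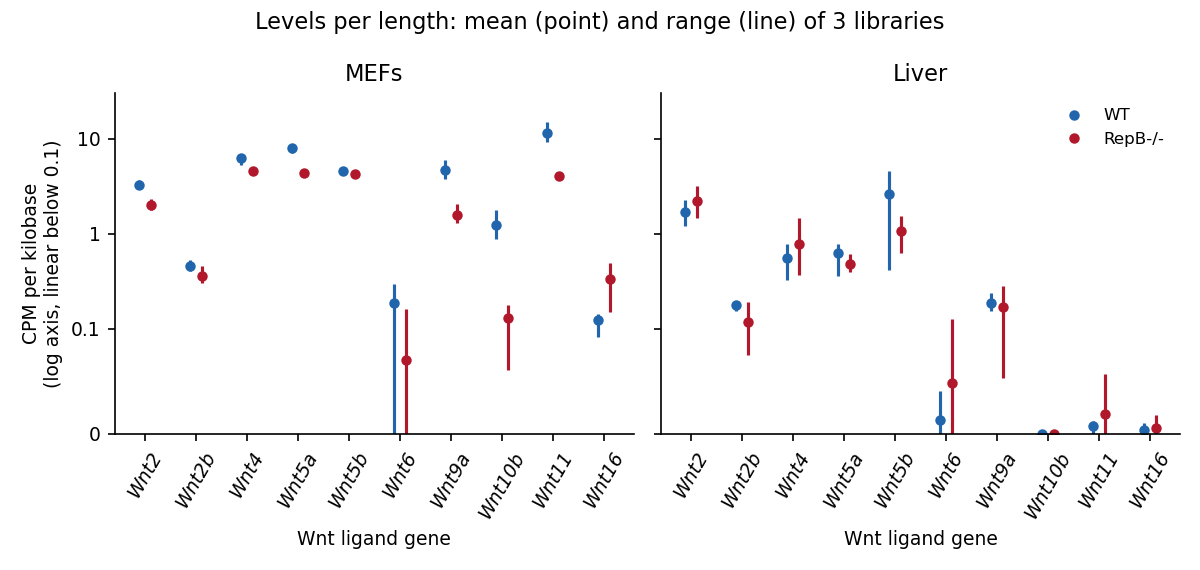
Mean (points) and range over 3 libraries (lines) of each ligand in CPM per kilobase of exon (vertical axis, logarithmic and linear below 0.1) in MEFs (left) and liver (right), WT in blue and RepB-/- in red. *Wnt11* stands highest in WT MEFs at 11.6 CPM per kilobase, and no ligand mean exceeds 2.61 CPM per kilobase in liver.

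The 3 genes whose profile over the 6 MEF libraries was most like that of *Wnt9a* were *Slc4a11*, *Card10* and *Marchf9*, by the root mean square difference of centred log2 CPM. That difference was 0.101, 0.160 and 0.165, and the median over all genes tested was 0.837. *Slc4a11*, a membrane transporter gene, had 1.68, 2.07 and 1.47 CPM in RepB-/- and 7.54, 5.01 and 4.63 CPM in WT. Among the ligands *Wnt11* was nearest to *Wnt9a* at 0.230, the 46th nearest gene, and *Wnt5a* followed at 0.497.

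The rest of the Wnt pathway was read from 100 genes in 10 lists, of which 80 could be tested in MEFs. By edgeR's quasi-likelihood test, with p-values adjusted over all genes by the Benjamini-Hochberg procedure, 18 of the 80 were higher in RepB-/- and 19 were lower, or 22.5% and 23.8%. Among all genes tested, 19.4% were higher and 19.7% were lower, so the pathway as a whole was called about as often as the transcriptome. Markers of several cell types differed between the genotypes as well, not only endothelial and mesothelial ones. The macrophage and cholangiocyte lists each held 2 genes called higher and 1 lower, and the keratinocyte list 1 higher, with overlapping sums. Among these, *Krt19* fell by 2.47 and *Krt14* rose by 1.63 on the log2 scale. Hepatocyte genes, almost silent here, summed to 0.405 to 0.568 CPM in RepB-/- and 0.804 to 2.33 CPM in WT. Over 7 endothelial genes the summed level was 20.1 to 22.0 CPM in RepB-/- and 29.9 to 36.6 CPM in WT, with 3 genes lower, 1 higher and *Clec4g* at 0 in every library. Over 4 mesothelial genes it was 4.43 to 5.22 CPM against 7.46 to 12.6 CPM, with *Msln* lower and *Upk3b* at the floor of 3 counts or fewer. Fibroblast markers summed to 14100 to 17200 CPM in RepB-/- and 9680 to 12700 CPM in WT, with 4 genes higher and 1 lower. Their part in the differences of Wnt genes was not tested.

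**Figure D4:**
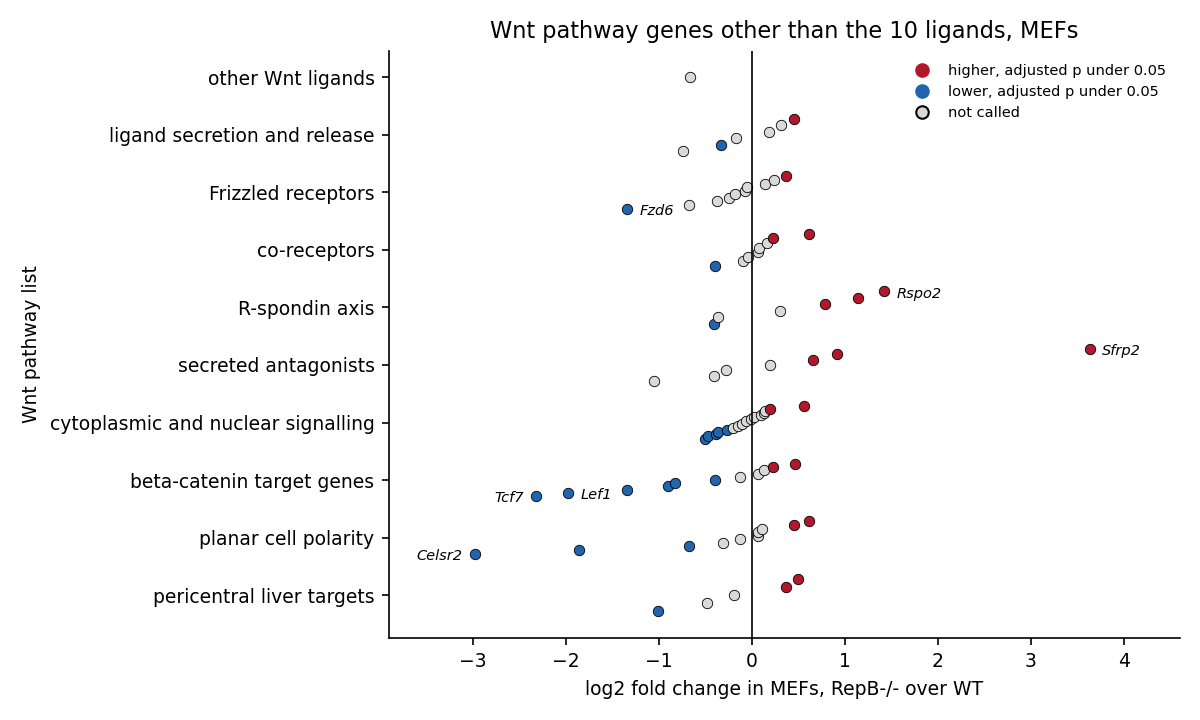
Log2 fold change of RepB-/- over WT in MEFs (horizontal axis) for the 80 tested pathway genes, 1 point a gene, in rows by list, red where called higher, blue where called lower and grey where not called. The row of beta-catenin target genes reaches to -2.32 (*Tcf7*) and that of the secreted antagonists to 3.63 (*Sfrp2*).

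Target genes of beta-catenin included 6 of 11 tested that fell and 2 that rose, with a median log2 fold change of -0.40. Over all genes tested 19.7% were lower and 19.4% were higher. The list was chosen with earlier results of these data known, so its count against these shares is not an independent test. The 3 targets that were not called, named after their values were seen, were *Myc* (0.07), *Ccnd1* (0.13) and *Ccn4* (-0.13). *Tcf7*, a transcription factor gene of the pathway, had 53, 38 and 32 counts in RepB-/- and 162, 137 and 173 counts in WT. It fell by 2.32 on the log2 scale (SE 0.23, adjusted p = 9.11e-06). *Lef1*, its partner in skin and limb mesenchyme, had 0.459, 0.878 and 1.01 CPM against 4.49, 1.86 and 3.09 CPM and fell by 1.98 (SE 0.40, adjusted p = 0.00172). *Axin2*, the feedback inhibitor most often used as a readout of the pathway, had 7.03, 6.46 and 6.28 CPM against 13.9, 9.89 and 11.6 CPM and fell by 0.83 (SE 0.16, adjusted p = 0.00103). In each of these 3 genes the RepB-/- libraries lay below all WT libraries. The other 3 that fell were *Apcdd1* and *Nkd1*, which encode inhibitors of Wnt signalling, and *Bambi*, which encodes a pseudoreceptor of the TGF-beta family, named after their values were seen. *Nkd2*, a relative of *Nkd1*, rose by 0.46 (SE 0.12, adjusted p = 0.00706), and *Twist1* rose by 0.23 (SE 0.085, adjusted p = 0.0431), a call lost without RepB-/- replicate 1 (0.22), RepB-/- replicate 2 (0.19) or WT replicate 3 (0.18). The number of genes called on this list was 8, and 5 by DESeq2, without RepB-/- replicate 1 or without WT replicate 3.

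Of 6 genes for secretion and release of Wnt proteins, 1 rose, 1 fell and 4 were not called. Across all genes tested in MEFs, 19.4% were higher and 19.7% were lower. *Wls* had 278, 264 and 262 CPM in RepB-/- against 206, 253 and 249 CPM in WT (log2 fold change 0.18, SE 0.082, adjusted p = 0.0951). Its fold change ran from 0.10 to 0.24 when single libraries were left out, and its result was stronger in 1 of 11 alternatives. X-linked *Porcn* had 12.6, 11.6 and 8.56 CPM against 8.74, 8.23 and 9.39 CPM (log2 fold change 0.31, SE 0.16, adjusted p = 0.140), and was called without RepB-/- replicate 3 at 0.47. *Notum*, which encodes an enzyme that removes the lipid of Wnt proteins and was named after its value was seen, had 1.07, 1.45 and 1.98 CPM against 3.85, 1.61 and 2.20 CPM (log2 fold change -0.74, SE 0.37, adjusted p = 0.129). On this list *Gpc6*, a cell surface glypican, rose by 0.45 (SE 0.084, adjusted p = 0.00103) and *Tinagl1* fell by 0.33 (SE 0.099, adjusted p = 0.0162). Without WT replicate 2 *Tinagl1* stood at -0.20, without RepB-/- replicate 3 at -0.27, and neither was called. Calls on this list numbered 2, and 1 without WT replicate 2 or 3 without WT replicate 1.

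Receptors were mostly not called, while 19.4% of all genes tested were higher and 19.7% were lower. Of 10 Frizzled genes *Fzd6*, a receptor with a role in hair and skin polarity, fell from 14.6, 8.16 and 9.33 CPM in WT to 4.08, 3.67 and 4.81 CPM in RepB-/- (log2 fold change -1.34, SE 0.22, adjusted p = 3.97e-04). *Fzd4* rose by 0.37 (SE 0.14, adjusted p = 0.0464), with overlapping libraries. That call was lost without RepB-/- replicate 1 (0.28) or 2 (0.35) and without WT replicate 1 (0.28) or 3 (0.40), and the number of Frizzled calls was 1 without RepB-/- replicate 1 or 2. Among 8 co-receptors, *Ror2*, through which Wnt5a acts, had 26.8, 23.9 and 24.1 CPM in RepB-/- and 28.4, 22.8 and 26.1 CPM in WT (log2 fold change -0.04, SE 0.10, adjusted p = 0.772). *Ptk7* fell by 0.40 (SE 0.083, adjusted p = 0.00187), *Reck* rose by 0.61 (SE 0.13, adjusted p = 0.00197) and *Gpr124* rose by 0.23 (SE 0.081, adjusted p = 0.0361). The *Gpr124* call was lost without RepB-/- replicate 1 (0.18), RepB-/- replicate 2 (0.24) or WT replicate 2 (0.19), and 2 co-receptors were then called.

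R-spondins enhance Wnt signals through Lgr receptors, and of 6 genes of this axis tested 3 rose and 1 fell in RepB-/- MEFs. Shares over all genes tested were 19.4% higher and 19.7% lower, and 6 genes are few to set against them. *Rspo3* had 18.5, 17.4 and 12.7 CPM against 4.73, 8.47 and 8.55 CPM in WT and rose by 1.14 (SE 0.20, adjusted p = 6.45e-04). *Rspo2* had 5.15, 4.24 and 1.57 CPM against 1.20, 1.18 and 1.66 CPM, with RepB-/- replicate 3 inside the WT range, and rose by 1.42 (SE 0.40, adjusted p = 0.0122). Of the receptors, *Lgr4* rose by 0.79 (SE 0.093, adjusted p = 3.31e-05) and was named after its value was seen, and *Lgr6* fell by 0.41 (SE 0.11, adjusted p = 0.0110). Without RepB-/- replicate 1 the calls of *Rspo2* (1.10) and *Lgr6* (-0.31) were lost and 2 genes of the list were called. *Lgr6* was not called without WT replicate 2 either (-0.29).

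Of the secreted antagonists, 3 of 7 tested rose and the other 4 were not called. By comparison, 19.4% of all genes tested were higher and 19.7% were lower. *Sfrp2*, which binds Wnt proteins outside the cell, had 141, 86.3 and 67.5 CPM in RepB-/- and 9.62, 6.18 and 8.26 CPM in WT, a rise of 3.63 (SE 0.24, adjusted p = 3.18e-07). *Dkk2*, a ligand of Lrp5 and Lrp6, had 76.3, 73.3 and 65.5 CPM against 23.5, 42.4 and 47.4 CPM and rose by 0.91 (SE 0.17, adjusted p = 0.00109). *Dkk3*, named after its value was seen, rose by 0.66 (SE 0.12, adjusted p = 6.84e-04). The 4 that were not called, named after their values were seen, were *Sfrp1* (-0.28), *Frzb* (-0.41), *Sfrp4* (-1.05) and *Wif1* (0.19). Without RepB-/- replicate 1, 5 antagonists were called, counting both directions.

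In the cytoplasm and nucleus, 2 of 16 genes rose and 5 fell, with a median log2 fold change of -0.08. The shares over all genes tested were 19.4% higher and 19.7% lower. *Apc*, of the complex that degrades beta-catenin, rose by 0.56 (SE 0.11, adjusted p = 0.00115), and *Ctnnb1*, the beta-catenin gene, rose by 0.20 (SE 0.070, adjusted p = 0.0375). *Ctnnb1* lost its call in 5 of the 6 fits that left out a library, at 0.17 to 0.24 over the 6, and kept it without WT replicate 1. *Axin1*, the scaffold of the same complex, fell by 0.50 (SE 0.11, adjusted p = 0.00333) and *Dvl2*, which relays the signal from Frizzled, fell by 0.47 (SE 0.12, adjusted p = 0.00556). The other 3 that fell were *Gsk3a*, *Pygo2* and *Bcl9*, named after their values were seen.

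Planar cell polarity genes, which orient cells within a sheet, held wider differences. *Celsr2*, an atypical cadherin gene, had 0.510, 0.620 and 0.760 CPM in RepB-/- and 7.06, 4.02 and 4.10 CPM in WT and fell by 2.98 (SE 0.34, adjusted p = 2.81e-05). *Celsr1* had 0.867, 1.03 and 0.507 CPM against 2.97, 2.78 and 3.03 CPM and fell by 1.86 (SE 0.33, adjusted p = 7.38e-04). *Prickle1* rose by 0.61 (SE 0.10, adjusted p = 4.80e-04) and *Daam2* by 0.45 (SE 0.12, adjusted p = 0.0101), and X-linked *Prickle3*, named after its value was seen, fell by 0.68 (SE 0.15, adjusted p = 0.00262). On this list 2 of 10 genes tested rose and 3 fell, against 19.4% higher and 19.7% lower over all genes tested. These 5 calls were 5 in each fit that left out a library. Among genes that mark the zone around the central vein in liver, 5 could be tested in MEFs, where *Tbx3*, also a limb transcription factor, fell by 1.01 (SE 0.13, adjusted p = 7.17e-05) and *Oat* rose by 0.37 (SE 0.077, adjusted p = 0.00194). *Lhpp* rose by 0.50 (SE 0.16, adjusted p = 0.0245), and lost its call without RepB-/- replicate 1 (0.44) or 3 (0.48) and without WT replicate 1 (0.41) or 3 (0.50). Of the other 9 Wnt ligands *Wnt10a* alone passed the filter in MEFs and was not called (log2 fold change -0.67, SE 0.44, adjusted p = 0.238). DESeq2 called 1 gene of that list, *Wnt1*, on the counts given above. By edgeR *Wnt1* was called without WT replicate 2 (adjusted p = 0.00808). With no filter on low counts edgeR called *Wnt1*, *Wnt3* and *Wnt3a* (adjusted p = 0.0161, 0.0298 and 0.0386), all lower in RepB-/-.

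In liver the genotype contrast was not used to choose the ligands and could be tested. None of the 6 ligands that passed the filter, *Wnt2*, *Wnt2b*, *Wnt4*, *Wnt5a*, *Wnt5b* and *Wnt9a*, was called by edgeR, 0 had an unadjusted p under 0.05 and 0 were called by DESeq2. Among all 16080 genes tested in liver, 6 or 0.0373% were called. The biological coefficient of variation was 51.2% in liver and 9.06% in MEFs, so most differences of the size seen in MEFs could not be detected at this spread. In all 6 tested ligands the libraries of the genotypes overlapped. They overlapped in the rest of the 10 as well, but those were at or near the floor, where overlap says little. The share of all liver genes that overlapped was not computed, so this is a description.

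**Figure D5:**
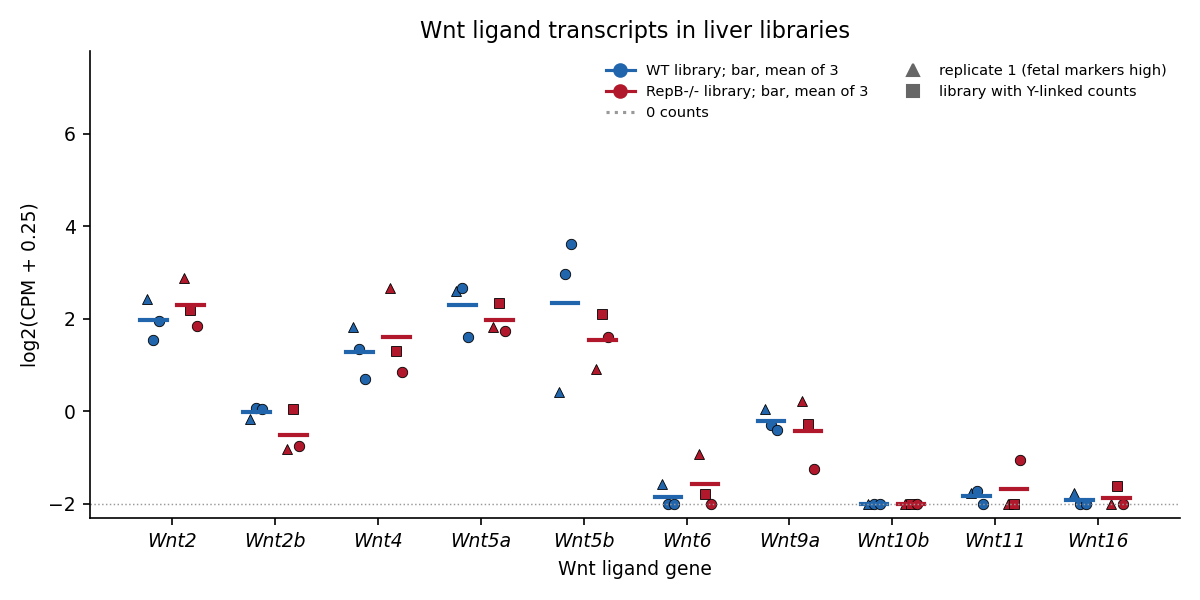
Levels of the 10 ligands in each liver library, as log2 of CPM plus 0.25 (vertical axis), with WT in blue, RepB-/- in red and bars at the mean of the 3 log values. Triangles are replicate 1 of each genotype, the livers with high fetal transcripts, and the square is the library with Y-linked counts. Triangles are the highest *Wnt2* and *Wnt4* and the lowest *Wnt5b* values of each genotype.

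*Wnt2*, which endothelial cells of the liver make, had 362, 218 and 114 counts in RepB-/- and 231, 104 and 171 in WT. The levels were 7.15, 4.33 and 3.33 CPM against 5.15, 2.69 and 3.61 CPM, and replicate 1 was the highest of each genotype. The log2 fold change was 0.37 (SE 0.42, adjusted p = 1.00), 0.29 without replicate 1 and 0.45 without RepB-/- replicate 2. Without RepB-/- replicate 1 alone it was 0.01.

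*Wnt9a* had 47, 29 and 6 counts in RepB-/- livers and 35, 22 and 24 in WT, or 0.928, 0.576 and 0.175 CPM against 0.781, 0.568 and 0.507 CPM. RepB-/- libraries enclosed the WT libraries in range. The log2 fold change was -0.13 (SE 0.66, adjusted p = 1.00), -0.48 without replicate 1 and -0.16 without RepB-/- replicate 2. Leaving out single libraries moved it between -0.69, without RepB-/- replicate 1, and 0.29, without RepB-/- replicate 3, and it was 0.07 without WT replicate 1. In MEFs the value was -1.55, and the 2 tables were made separately, so the difference between tissues was not tested.

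*Wnt5b* had 83, 204 and 96 counts in RepB-/- livers and 49, 295 and 571 in WT, the widest difference among the tested ligands in liver. At 1.64, 4.05 and 2.80 CPM against 1.09, 7.62 and 12.1 CPM, the fetal-like replicate 1 was the lowest of each genotype. The log2 fold change was -1.29 (SE 0.81, adjusted p = 1.00), -1.51 without replicate 1, -1.65 without RepB-/- replicate 2 and -0.63 without WT replicate 3. With the replicate number as a block it was -0.85 (SE 0.54, adjusted p = 0.818). *Wnt5a* had 3.32, 4.83 and 3.09 CPM in RepB-/- against 5.87, 6.07 and 2.81 CPM in WT, a log2 fold change of -0.39 (SE 0.40, adjusted p = 1.00), -0.16 without replicate 1 and -0.62 without RepB-/- replicate 2.

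*Wnt4* had 6.10, 2.22 and 1.55 CPM in RepB-/- livers and 3.28, 2.30 and 1.37 CPM in WT. Its log2 fold change of 0.51 (SE 0.62, adjusted p = 1.00) rested on RepB-/- replicate 1, without which it was -0.29, and it was 0.05 without replicate 1 of both genotypes and 0.72 without RepB-/- replicate 2. *Wnt2b* had 16, 40 and 12 counts against 29, 31 and 37, with a log2 fold change of -0.60 (SE 0.53, adjusted p = 1.00), -0.44 without replicate 1 and -1.16 without RepB-/- replicate 2.

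The other 4 ligands were at or near the floor in liver. *Wnt10b* had 0 counts in all 6 libraries, which allows up to between 0.0592 and 0.0875 CPM in each library, counting error only. *Wnt11*, the leading ligand of WT MEFs, had 0, 0 and 8 counts in RepB-/- and 2, 2 and 0 in WT, *Wnt16* had 0, 4 and 0 against 2, 0 and 0, and *Wnt6* had 14, 2 and 0 against 4, 0 and 0. In the liver table a count of 4 occurred 4318 times and a count of 3 only 2761 times, so small even values are over-represented there and single counts are not single fragments throughout. The cause of this was not tested.

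Per length, *Wnt5b* at 2.61 ± 2.08 and *Wnt2* at 1.69 ± 0.553 CPM per kilobase led in WT livers, followed by *Wnt5a* at 0.628 ± 0.234 and *Wnt4* at 0.552 ± 0.227 CPM per kilobase (SD, n = 3). The ranges of *Wnt5b* and *Wnt2* overlapped, as did those of *Wnt5a* and *Wnt4*, while *Wnt2* lay above *Wnt5a* in every library. In RepB-/- livers *Wnt2* was first at 2.19 ± 0.879 CPM per kilobase, *Wnt5b* next at 1.07 ± 0.455 and *Wnt4* after it at 0.785 ± 0.586 CPM per kilobase, with overlapping ranges. By the deposited TPM the same 4 ligands led in the same order in each genotype. Summed over 19 ligands, the level was 6.76, 5.38 and 4.03 CPM per kilobase in RepB-/- and 5.46, 6.16 and 7.45 CPM per kilobase in WT, so the sum overlapped in liver. It did not in MEFs, where the ligands that made up most of it were chosen with the MEF contrast in view. A difference between the tissues was not tested.

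Of the 100 pathway genes 79 were tested in liver, and edgeR called 0, with 1 at an unadjusted p under 0.05. *Wnt9b*, which central vein endothelium makes together with *Wnt2*, had 2.51, 1.69 and 2.33 CPM in RepB-/- and 3.19, 1.78 and 1.14 CPM in WT (log2 fold change 0.09, SE 0.48, adjusted p = 1.00). Its fold change was 0.46 without replicate 1 of both genotypes, 0.25 without RepB-/- replicate 2, -0.19 without WT replicate 3 and -0.02 without RepB-/- replicate 1. *Rspo3*, the R-spondin of the same cells, stood at 6.79, 3.26 and 5.78 CPM against 5.26, 5.09 and 4.48 CPM (log2 fold change 0.09, SE 0.34, adjusted p = 1.00), and at -0.09 without replicate 1 of both genotypes, 0.34 without RepB-/- replicate 2 and -0.13 without RepB-/- replicate 1. *Axin2* stood at 5.73, 6.45 and 9.28 CPM against 8.57, 8.52 and 10.4 CPM (log2 fold change -0.36, SE 0.27, adjusted p = 1.00), and at -0.27 without replicate 1 and -0.29 without RepB-/- replicate 2. *Glul*, the glutamine synthetase gene of hepatocytes around the central vein, stood at 431, 723 and 919 CPM against 534, 1065 and 1047 CPM (log2 fold change -0.35, SE 0.43, adjusted p = 1.00). The fold change of *Glul* was -0.36 without replicate 1 of both genotypes and -0.39 without RepB-/- replicate 2, and ranged from -0.61 to -0.10 when single libraries were left out. The libraries of the genotypes overlapped in all 4.

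The gene at an unadjusted p under 0.05 was *Celsr1*, named after its value was seen. It had 1.78, 5.34 and 3.47 CPM in RepB-/- livers and 7.29, 36.3 and 30.8 CPM in WT, without overlap. The log2 fold change was -2.81 (SE 0.68), with an adjusted p of 1.00 by edgeR, 0.082 with the replicate block and 0.00665 by DESeq2. Without replicate 1 of both genotypes it was -2.92 with an adjusted p of 0.0877 by edgeR. Without RepB-/- replicate 2 it was -3.25 with an adjusted p of 0.999, and with the block and replicate 2 of both genotypes left out -2.60 with an adjusted p of 0.645, both by edgeR. Over all alternatives the adjusted p ran from 9.69e-13, by DESeq2 with the replicate block, to 1.00.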

How the data were processed

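The analysis used 12 RNA-seq libraries, of which MEFs and liver each gave 3 RepB-/- and 3 WT. Groups and replicate numbers were taken from the sample titles, with B read as RepB-/- and W as WT. The 6 libraries of brain were left out as not analysed here. The methods of the study give Cutadapt for trimming and Hisat2 for alignment, while the submitters' processing notes name Trim Galore 0.4.1, STAR 2.7.0, HTSeq 0.12.4 and DESeq2. The methods describe stranded mRNA libraries for MEFs, but which tools made which table and the strand setting of the counting are not given in the sources used here, so reads of overlapping antisense genes may not be told apart. Both tables hold deposited whole-number counts per gene without normalization, with GRCm39 coordinates for MEFs and GRCm38 for liver. The MEF table also carries a gene length, and the liver table carries TPM values (transcript abundance per length and depth) that the authors deposited, used only to check the order of levels. The 12 other per-library columns and the authors' comparison columns, which hold fold changes and p-values, were not used.

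MEFs and liver were fitted separately in R 4.3.3 with edgeR 4.0.16, TMM normalization, filterByExpr, the quasi-likelihood test and an adjusted p of 0.05 after Benjamini-Hochberg over all genes tested. CPM are counts over TMM-scaled library sizes, and lengths for liver were exon lengths of GENCODE vM21. Profiles used log2 CPM with a prior count of 2. The floor was 3 counts. Scripts were tested on simulated counts. Alternatives were no filter on low counts, TMM computed from autosomes, size factors of DESeq2 within edgeR, DESeq2 1.42.0 itself, the replicate number as a block, leaving out each library and, in liver, replicate 1 of both genotypes, or replicate 2 of both with the block. DESeq2 with the block was added after the data had been seen. After removal of genotype means, same-numbered libraries correlated at -0.011, -0.0416 and -0.00348 in MEFs and at 0.71, 0.361 and 0.365 in liver, where the numbers were treated as pairs. The pairing rests on this correlation, since the labels name no shared litter or day. Deviations from a genotype mean cancel out over its libraries. The fetal-like replicate 1 of both genotypes therefore also shifts the deviations of replicates 2 and 3 the same way. The values for replicates 2 and 3 thus cannot show that those libraries are pairs, and results with the block in liver carry this limit.

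The 10 ligands and the pathway and marker lists were chosen with earlier results of these data known. Named were the 10 ligands, up to 2 genes that rose and 2 that fell most per pathway list among those called whose higher genotype averaged 1 CPM or more, *Porcn*, *Wls*, *Ror2*, *Axin2* and *Lef1*, in liver *Wnt9b*, *Rspo3*, *Glul* and *Axin2*, and the 3 genes most like *Wnt9a*. Promoter windows came from RefSeq (GRCm38.p6), matched by symbol. Python 3.11.15 with pandas 2.3.3, numpy 2.4.6 and matplotlib 3.10.9 produced the tables and plots.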

Additional observations from a re-analysis of the deposited data

How the results depend on the processing

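In MEFs the 9 fitted ligands kept the sign of their fold change under all 11 alternatives. MEF calls over all genes were 5202, and 5006 with the replicate block, and pathway calls were 37, and 34 with the block. MEF replicate numbers did not pair the libraries. Leaving out single libraries gave 3956 to 5233 calls over all genes and 29 to 36 over pathway genes in MEFs. In liver, 6 genes were called over all genes, and 8 with the replicate block, 80 by DESeq2, 269 by DESeq2 with the block, 2 without replicate 1 of both genotypes, and 0 without the filter or with the block and replicate 2 left out. Leaving out single libraries gave 0 to 4. The call count of liver ligands was 0 in all 14 alternatives, where few genes were called at all. Pathway genes called in liver were 0 by edgeR, and 1 by DESeq2 with or without the block. The causes of these shifts were not tested. *Fzd4*, *Gpr124*, *Ctnnb1* and *Nkd1* lost their MEF calls with the block, which changed no other call among the genes named. Precision in liver was limited by a variation of 51.2%, or 33.7% with the block, and by the libraries that stood apart. MEF libraries of WT were shallower and held more signal in silent receptor genes.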
